A study of Mus musculus with 8 samples.

Results

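Malat1, Neat1 and 8 small nucleolar RNA (snoRNA) host RNAs (Gas5, Snhg1, Snhg3, Snhg6, Snhg8, Snhg12, Dancr and Zfas1) were examined in mesenchymal stem cells (MSCs) from mouse bone. The 10 genes were chosen by name, and each symbol matched 1 of the 53465 gene identifiers of the count table. RNA sequencing had been performed on 4 samples cultured in hypoxia (2% O2, 5% CO2) and 4 samples cultured in normoxia (21% O2, 5% CO2), which addresses how a prolonged shift to high oxygen affects these cells. The cells came from the hind-limb bones of C57BL/6N mice aged 3-5 months, with no transgene and no drug in either group, and were kept in α-MEM medium. According to the study, cells were first grown at low oxygen, a CD45-/TER-119-/CD140a+/Sca-1+ population was sorted, and the sorted cells were divided between the oxygen levels, so both groups passed through hypoxic culture. The labels place the sort on day 12. The samples are cultured cells and not bone tissue. RNA was extracted from whole cells, so the counts say nothing about whether an RNA was in the nucleus or the cytoplasm.

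Malat1 and Neat1 are long RNAs that stay in the nucleus. Malat1 gathers in nuclear speckles, where splicing factors are stored, and Neat1 is the scaffold of paraspeckles, bodies that assemble on it together with RNA-binding proteins. Host RNAs work in another way. Their introns carry snoRNAs, which are cut out and guide the chemical modification of ribosomal RNA, with box C/D snoRNAs directing methylation and box H/ACA snoRNAs directing pseudouridine formation. The spliced exons that remain encode no known protein, and several of these spliced RNAs are degraded by nonsense-mediated decay when ribosomes read them. Many host RNAs begin, as ribosomal protein mRNAs do, with a terminal oligopyrimidine tract, a C followed by a run of C and T that links translation and stability to growth signals.

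The annotation (GENCODE M21, GRCm38) placed 31 snoRNA identifiers inside the members on their strand. Of these, 10 lay in Gas5, 8 in Snhg1, 5 in Snhg12, 3 in Zfas1, 2 in Snhg3 and 1 each in Snhg6, Snhg8 and Dancr. None lay in Malat1 or Neat1. Snord80 in Gas5 and Snora16a in Snhg12 each had 2 identifiers at nearly the same position, so the identifiers outnumber the distinct snoRNAs. The following guide RNAs, named by the annotation with a Snord or Snora symbol, are shown because they are what the host RNAs are made for. Capitals mark the C box (TGATGA) and D box (CTGA) of a box C/D snoRNA or the ACA box of a box H/ACA snoRNA, and the sequences are those of the GENCODE M21 transcripts.
Snord47, in Gas5, chr1:161038082-161038158, plus strand: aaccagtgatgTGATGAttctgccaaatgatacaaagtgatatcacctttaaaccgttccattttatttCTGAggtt
Snord99, in Snhg12, chr4:132310691-132310764, plus strand: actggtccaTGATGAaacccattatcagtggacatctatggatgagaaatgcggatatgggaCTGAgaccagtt
Snord87, in Snhg6, chr1:9942463-9942549, minus strand: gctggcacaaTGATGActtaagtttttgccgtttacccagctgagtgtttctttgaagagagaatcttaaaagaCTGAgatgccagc
Snord12, in Zfas1, chr2:167065276-167065365, plus strand: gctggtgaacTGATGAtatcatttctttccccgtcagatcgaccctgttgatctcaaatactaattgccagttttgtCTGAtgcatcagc
Snora24, in Snhg8, chr3:123507937-123508066, minus strand: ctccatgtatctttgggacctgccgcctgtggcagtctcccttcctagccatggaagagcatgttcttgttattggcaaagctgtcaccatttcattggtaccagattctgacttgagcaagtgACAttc
Of the 31 annotated sequences, 19 held TGATGA together with CTGA in their last 20 bases, 7 others held ACA in their last 8 bases, and 5 held neither.

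Start windows are shown for the members whose changes are described next, because the letters at the start are where a terminal oligopyrimidine tract would lie. RefSeq (GRCm38.p6) gave 9 start windows for 8 members, Gas5 having 2. Neat1 and Snhg6 had no window. Each sequence runs from 50 bases before the annotated start through its first 25 bases. Capitals mark a C followed by at least 4 letters that are C or T within 5 bases of the start, or ACGTG, the core letters that hypoxia-inducible factors bind.
Gas5, downstream start, chr1:161035116-161035190, plus strand: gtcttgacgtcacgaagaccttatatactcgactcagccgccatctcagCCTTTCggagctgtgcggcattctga
Snhg8, chr3:123508312-123508386, minus strand: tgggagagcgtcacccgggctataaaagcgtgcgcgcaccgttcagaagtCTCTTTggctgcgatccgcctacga
Snhg12, chr4:132308628-132308702, plus strand: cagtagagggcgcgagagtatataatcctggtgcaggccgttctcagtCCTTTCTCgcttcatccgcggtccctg
Snhg1, chr19:8723437-8723511, plus strand: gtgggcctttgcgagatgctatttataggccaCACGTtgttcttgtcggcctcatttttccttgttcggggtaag
Zfas1, chr2:167062884-167062958, plus strand: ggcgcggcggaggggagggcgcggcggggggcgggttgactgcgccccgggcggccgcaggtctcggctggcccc
Malat1, chr19:5802648-5802722, minus strand: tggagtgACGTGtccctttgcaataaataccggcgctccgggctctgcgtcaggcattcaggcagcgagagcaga
A run beginning within 5 bases of the start occurred in 4 of the 9 member windows, those of Gas5 (downstream start), Snhg8, Snhg12 and Snhg3, and in 18.3% of 32851 start windows of all genes. A run that could be read from the annotated start base itself was present in 2 member windows, Gas5 and Snhg8, and in 2.51% of all windows. ACGTG on either strand in the 300 bases of a window was present for Malat1 and Snhg1, 43 and 18 bases before their starts, and in 19.6% of all windows. These are only matches of letters and were not tested as binding or regulatory sites.

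Sequencing depth ranged from 12898291 to 25132141 counts per sample, and hypoxia replicate 1 held the largest number. Marker genes were read as a check of the cell type. All 10 stromal markers were counted, and their levels were summed in CPM (counts scaled to a common library size with TMM factors). The sum was 85800 to 94900 CPM in hypoxia and 59600 to 64100 CPM in normoxia. Most of this sum came from Col1a1 (mean log2 CPM 15.69 in hypoxia and 14.96 in normoxia) and Col1a2 (15.02 and 14.68). The next highest marker, Itgb1, had 10.07 and 10.50, so the sum mainly follows the collagen genes. Single markers moved both ways, with 3 higher (Cd44, Itgb1 and Lum) and 2 lower in normoxia (Col1a1 and Eng, limma-trend), and with 4 higher and 6 lower with the replicate block. Macrophage and blood markers summed to 596 to 1240 CPM in hypoxia and 677 to 1300 CPM in normoxia, with all 10 detected, although the sort removed CD45+ cells. Of these 10, Lyz2 was higher and C1qa was lower in normoxia without the replicate block (limma-trend), and with it 1 was higher and 6 were lower. Cartilage markers summed to 906 to 1120 CPM in hypoxia and 710 to 916 CPM in normoxia. Of 3 tested, Sox9 (-0.58, limma-trend adjusted p = 0.00071) and Col2a1 (-0.33, adjusted p = 0.023) were lower. Acan, the third, went the other way and did not pass (0.29, limma-trend adjusted p = 0.52). Once effects of GC and transcript length were removed, only 1 of the 3 passed, and it was lower. When the replicate block was added to this, 2 were lower and Acan was higher (0.40, limma-trend adjusted p = 0.013). Endothelial markers summed to 1.93 to 3.44 CPM with Emcn at 0, and the hemoglobin genes were at 0. The part of other cell types in the results was not tested. In bulk samples fewer cells of a type and less RNA per cell cannot be told apart.

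Together the 10 RNAs took 0.0683% ± 0.00635 of all counts at low oxygen and 0.063% ± 0.00493 at high oxygen (SD, n = 4 each). Malat1 and Neat1 together took 0.0171% ± 0.0019 of counts in hypoxia and 0.0246% ± 0.00236 in normoxia, whereas the snoRNA hosts took 0.0513% ± 0.00717 and 0.0384% ± 0.00261. These shares are given as a description, without a test. After the filter on low counts, 8 of the 10 members were among the 14369 genes tested. Of these, 7 passed the threshold of limma-trend (Benjamini-Hochberg adjusted p under 0.05 over all tested genes), 2 of them higher and 5 lower in normoxia, beside 34.6% of all tested genes (18% higher and 16.5% lower). With the replicate block the same 7 members passed in the same directions, beside 46% of all tested genes (23.3% higher and 22.7% lower), and likewise with the block joined to a correction for GC content and length, beside 43.2% (21.7% and 21.5%). Without the block, the corrected fit also called these 7, beside 29.5% (15.1% and 14.4%), and with library totals 6 members passed, beside 36.1% (25.1% and 11%). Hypoxia and normoxia samples were fully separated for 6 of the 8 members and for 32.6% of all tested genes. The median log2 change (normoxia minus hypoxia throughout) was -0.41 over the 8 members and 0.0049 over all tested genes.

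**Figure D1:**
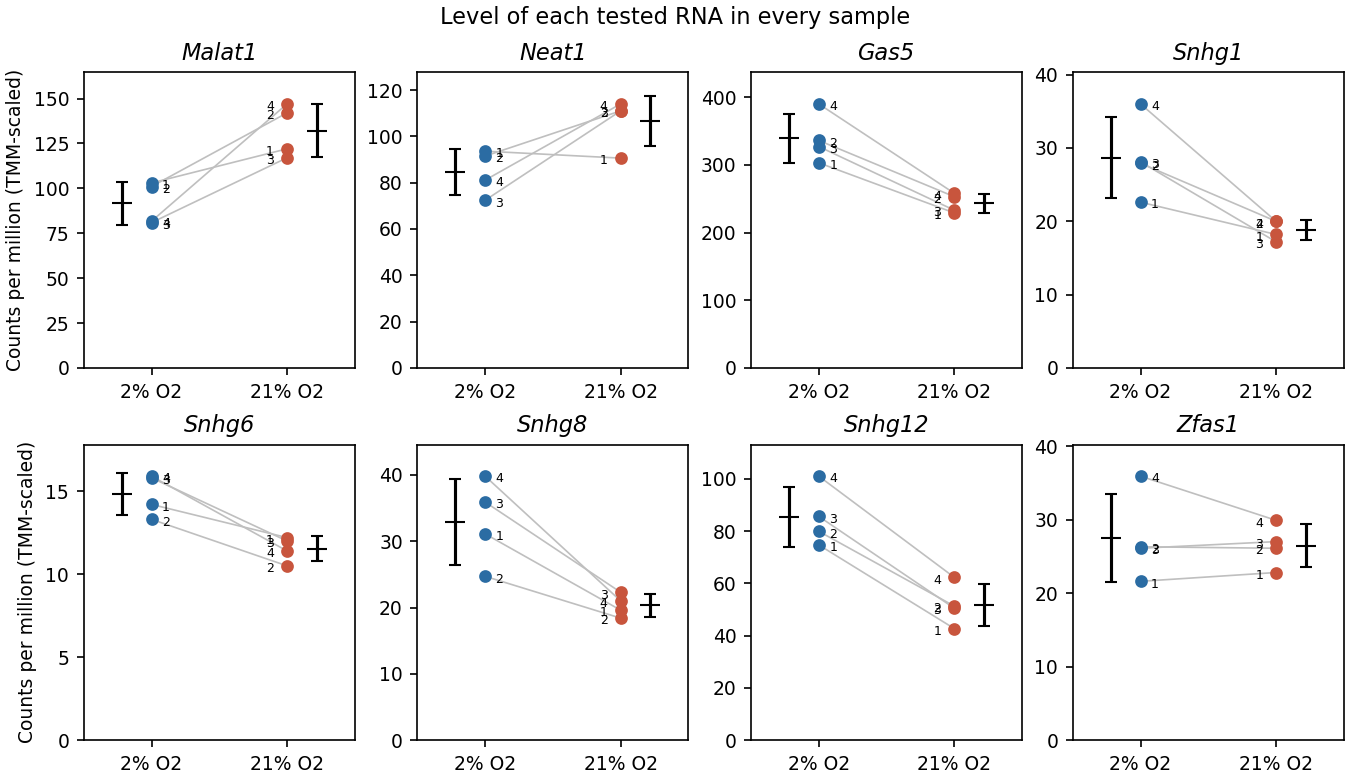
Level of each of the 8 tested RNAs in every sample, in CPM on linear axes that start at 0. Points are samples, numbers are replicates, grey lines join samples of the same number, and black bars give the mean and SD of 4 samples. Malat1 was higher in all 4 normoxia samples, Gas5, Snhg1, Snhg6, Snhg8 and Snhg12 were lower in all 4, and the groups overlap for Neat1 and Zfas1.

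Malat1 (ENSMUSG00000092341, chr19:5795690-5802672, minus strand), the speckle-associated RNA, was higher in normoxia. It had 2476, 1260, 1036 and 1060 counts in hypoxia replicates 1 to 4 and 1641, 1972, 1621 and 1947 counts in normoxia replicates 1 to 4. Scaled for library size, these were 103, 101, 80.9 and 81.7 CPM in hypoxia against 122, 142, 117 and 147 CPM in normoxia, so that every normoxia sample lay above every hypoxia sample. Means were 91.8 ± 12.2 and 132 ± 14.7 CPM (SD, n = 4 each). The log2 change was 0.53 (SE 0.10, 95% interval 0.31 to 0.74), a 1.44-fold rise (limma-trend adjusted p = 0.0019). In all 4 numbered pairs normoxia was higher, by 0.24, 0.49, 0.53 and 0.84 on the log2 scale. A correction for the GC content and length of transcripts lowered the change to 0.33 (limma-trend adjusted p = 0.011). Among all tested genes, 1115 had a larger rise.

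Neat1 (ENSMUSG00000092274, chr19:5824708-5845478, minus strand) lies beside Malat1 on the same chromosome and strand and was also higher in normoxia. Its levels were 93.6, 91.5, 72.4 and 81.1 CPM in hypoxia and 90.6, 111, 111 and 114 CPM in normoxia. Normoxia replicate 1 fell within the hypoxia range, whereas the other 3 normoxia samples lay above it. The log2 change was 0.34 (SE 0.094, 95% interval 0.13 to 0.54, limma-trend adjusted p = 0.016), and normoxia was higher in 3 of 4 numbered pairs, pair 1 changing by -0.047. In this fit, without block or correction, the call depended on single samples. Without hypoxia replicate 3 the change was 0.26 (limma-trend adjusted p = 0.052), and without normoxia replicate 4 it was 0.29 (adjusted p = 0.054). With all samples Neat1 passed with the replicate block (limma-trend adjusted p = 0.00063) and with the GC and length correction (0.39, adjusted p = 0.0046). Single samples were not left out of those fits. Gene counts do not separate the short and the long transcript of Neat1, of which the long form is the paraspeckle scaffold.

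Gas5 (ENSMUSG00000053332, chr1:161034422-161038539, plus strand), a host of box C/D snoRNAs that was first described as a transcript accumulating in growth-arrested cells, was the most abundant of the 10 RNAs. Its levels were 303, 336, 327 and 390 CPM in hypoxia and 229, 253, 233 and 258 CPM in normoxia. Each normoxia sample lay below each hypoxia sample, with means of 339 ± 36.6 and 243 ± 14.2 CPM (SD, n = 4 each). The log2 change was -0.47 (SE 0.077, 95% interval -0.64 to -0.31, limma-trend adjusted p = 0.00075), which left normoxia at 72.1% of the hypoxia level. The numbered pairs were close to each other, at -0.40, -0.41, -0.49 and -0.59. With the GC and length correction the change was -0.65.

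Snhg12 (ENSMUSG00000086290, chr4:132308623-132311024, plus strand) had a log2 change of -0.72, the largest of the members without a correction. With the GC and length correction it was -0.74, against -0.79 for Snhg1, and without hypoxia replicate 2 the change of Snhg8 was larger (-0.80). Snhg12 had 74.7, 79.9, 85.6 and 101 CPM in hypoxia and 42.7, 51.3, 50.5 and 62.3 CPM in normoxia, with no overlap. Its level in normoxia was 60.5% of that in hypoxia (SE of the log2 change 0.11, limma-trend adjusted p = 0.00063), and 480 tested genes had a larger fall. Its pairs ranged only from -0.80 to -0.64. Snhg8 (ENSMUSG00000104960, chr3:123507552-123508404, minus strand), which carries the box H/ACA RNA Snora24 shown with the guide sequences, had 31.1, 24.7, 35.9 and 39.8 CPM in hypoxia and 19.6, 18.4, 22.3 and 21.0 CPM in normoxia. The lowest hypoxia sample, replicate 2, was close to the highest normoxia sample, replicate 3, but did not overlap it. The log2 change of Snhg8 was -0.67 (SE 0.13, limma-trend adjusted p = 0.002).

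Snhg1 (ENSMUSG00000108414, chr19:8723475-8726443, plus strand), the host of Snord22 and further box C/D snoRNAs, had 22.6, 27.9, 28.1 and 36.0 CPM in hypoxia and 18.2, 20, 17.2 and 20 CPM in normoxia. The normoxia values were tightly grouped, whereas the hypoxia values were spread. Its log2 change was -0.58 (SE 0.12, limma-trend adjusted p = 0.0034), with pairs from -0.84 to -0.31. Snhg6 (ENSMUSG00000098234, chr1:9941959-9944118, minus strand), the host of Snord87, had 14.2, 13.3, 15.8 and 15.9 CPM in hypoxia and 12.2, 10.5, 12.0 and 11.4 CPM in normoxia. These values do not overlap, but the change was the smallest of the 5 falls (log2 change -0.36, SE 0.098, limma-trend adjusted p = 0.015). With library totals in place of TMM factors it was -0.27 and no longer passed the threshold (limma-trend adjusted p = 0.056).

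**Figure D2:**
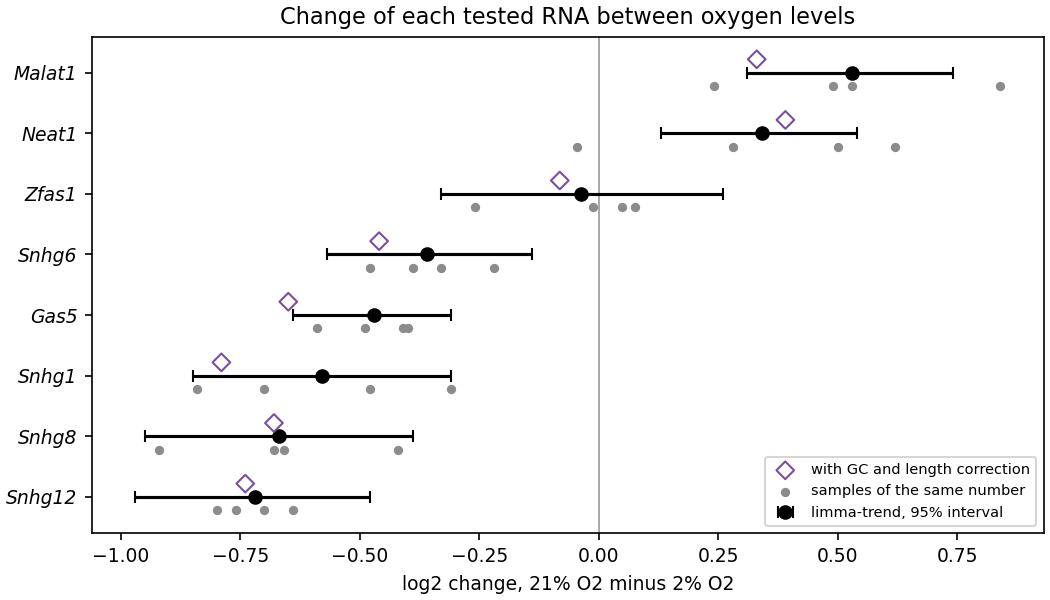
Log2 change of each tested RNA, 21% O2 minus 2% O2, with black points and 95% intervals from limma-trend, grey points for the 4 pairs of samples with the same number, and open diamonds for the GC and length correction. The intervals of Malat1 and Neat1 lie above 0, those of 5 hosts lie below 0, and that of Zfas1 runs from -0.33 to 0.26.

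Zfas1 (ENSMUSG00000074578, chr2:167062934-167065862, plus strand), the host of 3 annotated snoRNAs including Snord12, was the tested host for which no change was detected. Its levels were 21.6, 26.3, 26.1 and 35.9 CPM in hypoxia and 22.8, 26.1, 27.0 and 29.9 CPM in normoxia. The normoxia values lay entirely within the hypoxia range. The log2 change was -0.037 (SE 0.14, limma-trend adjusted p = 0.86), with a 95% interval of -0.33 to 0.26. That interval does not hold the estimates of Snhg12, Snhg8, Snhg1, Snhg6 or Gas5. It overlaps the intervals of Snhg6 (-0.57 to -0.14), Gas5 (-0.64 to -0.31) and Snhg1 (-0.85 to -0.31). Those of Snhg8 (-0.95 to -0.39) and Snhg12 (-0.97 to -0.48) lay below it. Differences between hosts were not tested. The sign of the Zfas1 change was not stable, since it was 0.051 with library totals, 0.098 without hypoxia replicate 4 and 0.019 without normoxia replicate 1.

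Snhg3 (ENSMUSG00000085241, chr4:132348014-132353686, minus strand), a host of box H/ACA snoRNAs, had 0 counts in all 8 samples. Dancr (ENSMUSG00000106943, chr5:74093060-74095406, plus strand), named for its role in keeping progenitor cells undifferentiated, had 5 counts in hypoxia replicate 1, 1 count in hypoxia replicate 4 and 0 in the other 6 samples. A count of 0 allows a level of up to 0.119 to 0.233 CPM, depending on the depth of the sample. Neither gene passed the filter, and no difference was detectable at this depth. In the annotation, 135 of the 986 exonic bases of Snhg3 overlap exons of Rcc1 and 705 overlap exons of Gm17300. How reads were assigned there is not given in the sources used here, and its part in the count of 0 was not tested.

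The snoRNAs themselves were hardly measured. The 31 rows for snoRNAs inside the members held 1 count over all 8 samples, for Snord87 in normoxia replicate 4. Across the whole table, 150 of 1558 snoRNA rows had any count and 1 passed the filter. The host counts therefore report the host rows, and a change in the guide RNAs was not detectable. Counting all annotated transcripts, exons of the host cover most of these snoRNAs, for example all 77 bases of Snord47 and all 130 of Snora24. They cover 0 bases of Snord87. How reads over such shared bases were assigned is not given in the sources used here, and its part in these low counts was not tested.

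Within hypoxia the hosts shared their highest sample. Hypoxia replicate 4 was the highest hypoxia sample for all 6 tested hosts, and hypoxia replicate 1, the deepest library, was the lowest for 4 of them. Without hypoxia replicate 4 the 5 falls were between -0.64 (Snhg12) and -0.32 (Snhg6), and without hypoxia replicate 1 they were between -0.78 (Snhg12) and -0.37 (Snhg6). Each stayed past the threshold in both cases. Malat1 and Neat1 did not share this order, and their lowest hypoxia sample was replicate 3.

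Levels of different RNAs were compared only after division by length, as CPM per kilobase of exon. In hypoxia Gas5 was the highest at 90.1 ± 9.75, followed by Snhg8 at 38.5 ± 7.61 and Snhg12 at 35.5 ± 4.77, whose ranges overlapped each other (SD, n = 4 each). Malat1 (13.1 ± 1.74), Snhg6 (12.9 ± 1.1), Snhg1 (9.65 ± 1.86) and Zfas1 (9.38 ± 2.06) formed a middle group in which neighbours overlapped, and Neat1 was lowest of the tested RNAs at 4.08 ± 0.473. In normoxia the top of the order was the same, at 64.7 ± 3.78 for Gas5, 23.8 ± 1.99 for Snhg8 and 21.5 ± 3.36 for Snhg12. Malat1 at 18.9 ± 2.1 then stood clear of Snhg6 at 10 ± 0.652, and Snhg1 at 6.35 ± 0.478 lay below Zfas1 at 9.03 ± 1.0 without overlap. The order depends on the length assigned to each gene. With the longest transcript in place of all exonic bases, 4 of the 10 members in hypoxia and 8 in normoxia kept their rank. Snhg12 moved above Snhg8 in both groups, and in hypoxia Snhg6 (18.2 ± 1.55) lay above Malat1 (13.1 ± 1.74) without overlap.

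**Figure D3:**
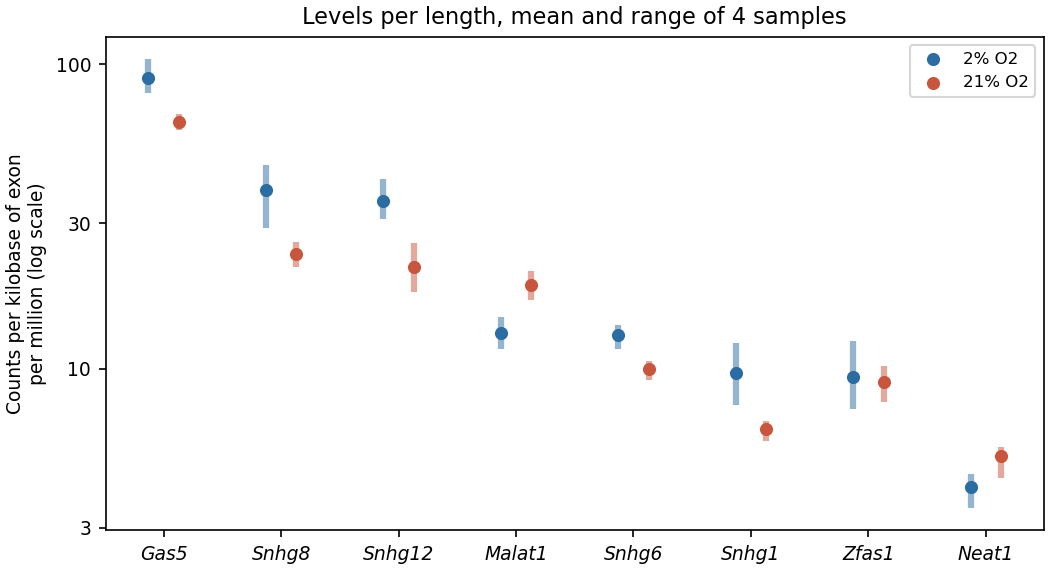
Levels of the 8 tested RNAs, as CPM per kilobase of exon, on a log axis, with points for the mean and bars for the range of 4 samples in each group. Gas5 is highest in both groups (90.1 in hypoxia and 64.7 in normoxia), and Malat1 overlaps Snhg6 in hypoxia but not in normoxia.

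Several members share a start region with a protein-coding gene, on the opposite strand for Snhg1, Gas5 and Zfas1 and on the same strand for Snhg3. Slc3a2, the heavy chain of amino acid transporters, starts 106 bases from Snhg1 and fell by 0.24 on the log2 scale (SE 0.054, limma-trend adjusted p = 0.005). It had 8 ± 0.046 log2 CPM at low oxygen against 7.76 ± 0.062 at high oxygen (SD, n = 4 each), without overlap. The change of Snhg1, the other partner, was -0.58, with a 95% interval of -0.85 to -0.31, against -0.35 to -0.12 for Slc3a2. Zbtb37, a zinc finger gene whose start is 427 bases from that of Gas5, had a log2 change of -0.32 (SE 0.14, limma-trend adjusted p = 0.093), which passed the threshold with the replicate block (adjusted p = 0.029) and with the GC and length correction (-0.41, adjusted p = 0.022). Rcc1, the nucleotide exchange factor of Ran, lies on the strand of Snhg3, starts 81 bases from it and overlaps it by 5592 bases. It had 201 to 618 counts where Snhg3 had none, with a log2 change of 0.15 (SE 0.14, limma-trend adjusted p = 0.44). With the correction joined to the replicate block Rcc1 was at 0.25 and passed (adjusted p = 0.014). Znfx1, a zinc finger protein, starts 81 bases from Zfas1, and as for Zfas1 no change was detected (-0.0076, SE 0.076, limma-trend adjusted p = 0.95). Exons of Zfas1 and Znfx1 overlap by 82 bases, and reads there cannot be told apart without strand.

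Genes whose log2 CPM over the 8 samples most resembled that of a member were listed among 9394 genes with a mean log2 CPM of at least 3. For Malat1 they were Rapgef6, a Rap exchange factor (Pearson r = 0.993), Cdk13, a kinase of RNA polymerase II (r = 0.989), and Rps6kb1, the ribosomal S6 kinase (r = 0.988). For Neat1 they were Dido1 (r = 0.987), Ice1, a subunit of the little elongation complex (r = 0.981), and Gadd45b (r = 0.981). For Gas5 they were 2410006H16Rik (r = 0.994), the retinol saturase Retsat (r = 0.992) and the procollagen processing enhancer Pcolce (r = 0.992). The first of these is itself a long non-coding gene that holds 3 annotated snoRNAs, and its log2 change was -0.77 (SE 0.11, limma-trend adjusted p = 0.00031). These r are descriptions over samples that share the group difference and the library.

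Other non-coding hosts were read from the same fit. Of a list of 14 further hosts, 9 were tested and 1 passed the threshold, Snhg18, which had 4.90 ± 0.055 log2 CPM in hypoxia and 4.46 ± 0.13 in normoxia (SD, n = 4, log2 change -0.45, limma-trend adjusted p = 0.0015). The median change of the 9 was -0.18. The share that passed was 11.1%, beside 34.6% of all tested genes. With the replicate block 4 of 9 passed (44.4%, beside 46% of all tested genes). Of these, 1 was higher (Snhg17, 0.31, adjusted p = 0.048) and 3 were lower (Snhg18, Snhg5 and Epb41l4aos). In a wider set, defined from the annotation after the values had been seen, 21 long non-coding genes that hold a snoRNA and are not members were tested. Of these 3 were lower (2410006H16Rik, Snhg18 and 1110038B12Rik) and 1 was higher (Cct6a, a chaperonin gene typed as a processed transcript in the annotation), with a median of -0.18. The share that passed was 19%, beside 34.6% of all tested genes. With the block 9 passed (42.9%, beside 46%). Whether the members differ from the other hosts was not tested.

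Most snoRNAs lie in introns of protein-coding genes, many of which serve ribosome production. Of 32 such hosts, of which 31 hold a snoRNA in the annotation, 13 were lower and 7 were higher, with a median log2 change of -0.033 that turned to 0.056 with library totals. The share that passed was 62.5%, beside 34.6% of all tested genes. The largest falls were in Rps12 (-0.77, SE 0.087, limma-trend adjusted p = 0.00011) and Rpl10 (-0.62, SE 0.068, adjusted p = 9.9e-05), both ribosomal proteins, and in Tpt1 (-0.56, SE 0.076, adjusted p = 0.00027), a translationally controlled growth protein. The rises were led by genes of the nucleolus, namely Nop56 (0.62), Dkc1 (0.50) and Ncl, nucleolin (0.34). The GC and length correction left 2 of the 32 hosts higher and 14 lower (50%, beside 29.5% of all tested genes). With the replicate block added to it, 9 were higher and 14 lower. After the GC and length correction Dkc1 (0.33, limma-trend adjusted p = 0.068) and Ncl (0.16, adjusted p = 0.15) no longer passed, but both did with the correction joined to the replicate block (adjusted p = 0.0026 and 0.002). In a set defined after the values had been seen, all 31 ribosomal protein genes that hold an annotated snoRNA were tested. Rack1 was counted among them (-0.49, limma-trend adjusted p = 0.0007). Of the 31, 24 were lower in normoxia and 7 did not pass (limma-trend), and the median was -0.42. The share of these 31 that passed was 77.4%. The other 205 tested protein-coding hosts had 56 higher and 32 lower (42.9% past the threshold), with a median of 0.059. This balance depended on the scaling, with 34 higher and 36 lower after the GC and length correction (median 0.01) and 83 higher and 17 lower with library totals. Ribosomal protein genes have many near-identical copies, so that their counts are uncertain wherever reads could be assigned to a copy.

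Here and below, a protein name stands for the RNA of its gene, and these counts give no protein levels. Of 17 snoRNP proteins and assembly factors, 6 rose, 1 fell and 10 did not pass the test, with a median of 0.11. The share that passed was 41.2%, near the 34.6% of all tested genes. The snoRNP proteins join the guide RNAs to form the particles that modify ribosomal RNA. Nop58 and Nop56, the core proteins of the box C/D particle, rose by 0.63 (SE 0.09, limma-trend adjusted p = 0.00036) and 0.62 (SE 0.11, adjusted p = 0.0015), and the assembly factor Nufip1 rose by 0.70 (SE 0.14, adjusted p = 0.002). Fbl, the methyltransferase of the same particle, had a log2 change of 0.019 (adjusted p = 0.92). The fall was that of Pih1d1 (-0.38, adjusted p = 0.00081), a cochaperone of particle assembly, which was -0.13 and did not pass after the GC and length correction (adjusted p = 0.19).

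The RNAs of proteins of the bodies in which Malat1 and Neat1 reside moved in both directions. Of 16 nuclear speckle proteins 8 rose and 1 fell (56.2% past the threshold, beside 34.6% of all tested genes), with a median of 0.19. The rises included those of Bclaf1 (0.68, SE 0.086, limma-trend adjusted p = 0.00019) and the splicing factor Sf3b1 (0.57, SE 0.06, adjusted p = 9e-05). Srrm2, a structural protein of speckles, fell by 0.32 (SE 0.067, adjusted p = 0.0033). After the GC and length correction 7 speckle genes rose and 2 fell (median 0.13), and 7 rose and 4 fell with the replicate block added. With library totals 10 rose and 1 fell. Of 20 paraspeckle proteins 5 rose and 4 fell (45% past the threshold), with a median of -0.016. This balance moved with the scaling, to 7 higher and 2 lower with library totals, and to 3 higher and 6 lower after correction for GC content and length. The 3 related proteins that bind Neat1 directly, of which Nono and Sfpq are named after their values were seen, went different ways. Pspc1 rose by 0.62 (SE 0.085, limma-trend adjusted p = 0.00029), Sfpq fell by 0.20 (SE 0.068, adjusted p = 0.042), and Nono had a log2 change of -0.036 (SE 0.052, adjusted p = 0.63). Tardbp (0.31) and Ewsr1 (0.30) also rose, and Rbm3, a cold-inducible RNA-binding protein (-0.43), Rbm14 (-0.39) and Nudt21 (-0.24) fell. The call of Tardbp was lost with the GC and length correction (0.11, adjusted p = 0.43) and without any 1 of 5 samples, and that of Nudt21 with library totals (-0.15, adjusted p = 0.11) and without hypoxia replicate 4 (-0.20, adjusted p = 0.051). After the GC and length correction Nudt21 was at -0.44.

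Of 14 factors of nonsense-mediated decay, 5 rose (35.7%, close to the share of all tested genes) and 9 did not pass the test, with a median of 0.076. Upf2 rose by 0.71 (SE 0.093, limma-trend adjusted p = 0.00022), Smg5 by 0.47 (SE 0.09, adjusted p = 0.002) and Upf3b by 0.44 (SE 0.12, adjusted p = 0.013). Upf3b was at 0.27 after the GC and length correction (adjusted p = 0.088, and 0.032 with the replicate block). When that correction was joined to the replicate block, 7 factors rose and 3 fell (71.4%, beside 43.2% of all tested genes). Of a list of 20 other long non-coding RNAs, 10 were tested and only H19 passed. It had 6.13 ± 0.27 log2 CPM in hypoxia and 3.95 ± 0.79 in normoxia (SD, n = 4, log2 change -2.18, SE 0.30, limma-trend adjusted p = 0.0003). With the replicate block Tug1 (0.16, adjusted p = 0.032) and Rian (0.21, adjusted p = 0.0011), itself a snoRNA host, were also higher. The median of the 10 was 0.039, and 10% passed, beside 34.6% of all tested genes (30% and 46% with the replicate block).

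**Figure D4:**
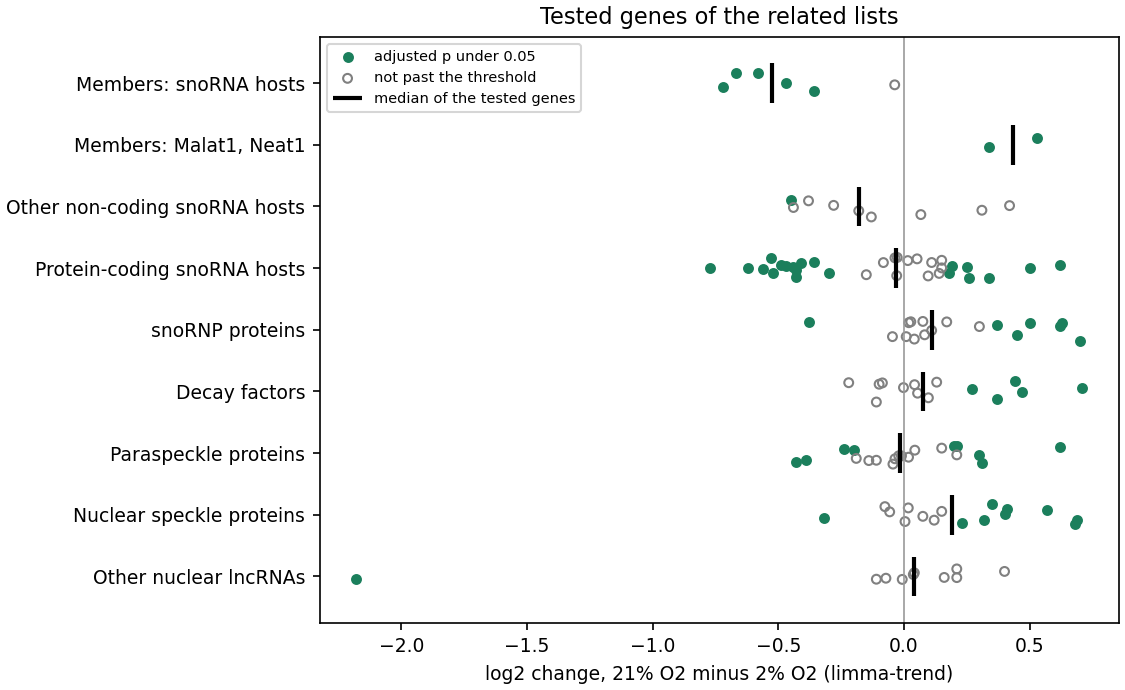
Log2 change, 21% O2 minus 2% O2, of the tested genes of the members and of 7 related lists, with filled points for genes with a limma-trend adjusted p under 0.05, open points for the others and black bars for medians. The tested member hosts lie between -0.72 and -0.037, Malat1 and Neat1 at 0.53 and 0.34. The lists of genes for proteins spread to both sides of 0.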

How the data were processed

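Total RNA was isolated from 8 MSC samples, and libraries made from it were sequenced as single-end reads. The study's methods do not say how RNA was selected for the libraries, for example by polyadenylation. The authors ran zUMIs (with STAR, samtools and featureCounts) against mm10 and the Ensembl annotation, and deposited raw gene counts, which are not normalized. Strand, intron and multi-mapping settings are not given in the sources used here. As in the study, low genes were removed by filterByExpr (edgeR 4.0.16, minimum count 5), which left 14369 genes, and groups were compared with limma-trend (limma 3.58.1, R 4.3.3). The scaling is not given in the sources used here, and log2 CPM with TMM factors and a prior count of 3 was chosen. Two-sided p-values were adjusted by Benjamini-Hochberg, with a threshold of 0.05. This scale understates changes of low genes. Symbols and positions were taken from GENCODE M21 (GRCm38), counted from 1.

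The members and lists were chosen with earlier results of these data known. The genes named are the members, their neighbours that start within 1000 bases on the opposite strand or overlap them and passed the filter, up to 3 of the largest rises and falls of each list, and the 3 genes most like Malat1, Neat1 and Gas5. Any other gene was named after its values were seen. A gene that this rule names is not reported here.

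Same-numbered samples deviated alike from the mean of their group, with correlations across genes of 0.474, 0.275, 0.249 and 0.172 for pairs 1 to 4, and the study describes dividing sorted cells between oxygen levels. Same numbers were therefore read as pairs in the descriptions, but the main fit had no block. Blocking on the replicate number was an alternative, and intervals, SE and p-values come from the fit without it unless stated. The labels name no animals, so p-values measure the spread between these samples. Other alternatives were edgeR's quasi-likelihood test, DESeq2 1.42.0, limma-voom, RLE factors, library totals, leaving the 20 most counted genes out of the totals, minimum count 10, no filter, a prior count of 0.5, removal of natural splines (5 degrees of freedom) of GC content and length from the 14353 tested genes with a value, and leaving out each sample. The methods were tested on simulated data. A floor of 3 counts was used for a count of 0, and floors cover counting error only.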

Additional observations from a re-analysis of the deposited data

Results flagged for a closer look

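Neat1 in normoxia replicate 1 had a level of 6.50 log2 CPM, below the 6.80 to 6.84 of the other 3 normoxia samples, and the gap took 0.882 of the range of the group, above Dixon's critical value for 4 samples. The total count of hypoxia replicate 1, 25132141, stood apart from the 12929564 to 13219647 of the other hypoxia samples, with a gap of 0.976 of the range. Of 32 sets of 4 values searched, 2 held such a sample, where chance alone gives about 1.6. No cause was tested for either.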

How the results depend on the processing

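The 5 falls of the hosts and the rise of Malat1 kept their direction under every alternative, and passed the threshold except for Snhg6 with library totals (-0.27). Leaving out single samples gave between 1 and 2 members called higher and Neat1 changes of 0.26 to 0.40. The Zfas1 change turned to 0.051 with library totals and ranged from -0.14 to 0.098 when single samples were left out, where 0.098 and 0.019 were the values that turned. Library totals shifted the median of all tested genes to 0.089 and their calls to 3611 higher and 1575 lower. Of the other non-coding hosts, where 1 passed, 4 passed with the replicate block, 2 each with edgeR, RLE factors, library totals or minimum count 10, 3 with the GC and length correction, 4 when this was joined to the block, and 1 to 3 without single samples. The 4 with the block were 44.4% of those tested, beside 46% of all tested genes. Of the other long non-coding RNAs listed with H19, where H19 alone passed, 3 passed with the replicate block and 4 with library totals. With the correction and the block 2 passed, and without single samples 1 to 3. With the correction and the block, 11 of 17 snoRNP proteins (64.7%) and 10 of 14 decay factors (71.4%) passed, beside 43.2% of all tested genes. Without single samples, 5 to 9 paraspeckle proteins and 3 to 6 decay factors passed. Znfx1 turned to 0.081 with library totals, to 0.11 with the correction, with or without the block, and ranged from -0.058 to 0.03 without single samples. Ranks by longest transcript matched for 4 members in hypoxia and 8 in normoxia. The replicate block changed no call of a member, and among neighbours it changed that of Zbtb37, which also passed with the correction alone (-0.41) and without normoxia replicate 4 (-0.45). Rcc1 passed with the correction and the block (0.25). The cause of these differences was not tested. Snhg3, Dancr and the snoRNA rows were at or near 0, and the parts of depth, library preparation and read assignment in this were not tested.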
